A study of Mus musculus with 4 samples.

Results

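The Kruppel-like factors (KLFs) described here are 10 genes, *Klf2*, *Klf3*, *Klf4*, *Klf5*, *Klf6*, *Klf7*, *Klf9*, *Klf10*, *Klf13* and *Klf15*, taken by symbol from a table of 48587 gene symbols. The table holds mRNA-seq counts of primary mouse vascular smooth muscle cells (VSMCs) grown out of descending aortas of C57BL/6J mice aged 8 to 12 weeks. Per the study's methods, the adventitia had been digested away and the endothelium scraped off before the cells were plated. The cells received a lentivirus with a hairpin against *Mettl14* (shMettl14) or a nontargeting hairpin directed at a plant microRNA (shCTR). Both viruses carried GFP, both cultures were grown in serum, and no culture without virus was analysed here. The library titles carry a letter, and each hairpin has 1 library lettered A and 1 lettered B, 4 libraries in all. Nothing says that the letters mark separate animals, cultures or days, so p-values measure the spread between these libraries only. One *Mettl14* hairpin was used, so an effect of the hairpin other than through METTL14 cannot be told apart from the knockdown.

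KLFs are transcription factors whose C-terminal zinc fingers bind CACCC boxes and related GC-rich elements, while their N-terminal parts recruit different cofactors. KLF2, KLF4, KLF5, KLF6 and KLF7 can activate transcription through acetyltransferases, KLF3 represses through CtBP proteins, and KLF9, KLF10 and KLF13 recruit the SIN3A corepressor. In VSMCs, KLF4 is known for repressing contractile genes during the switch to the synthetic phenotype, KLF5 for promoting growth after injury, and KLF15 for restraining growth. Several KLF mRNAs are short-lived and respond quickly to serum, glucocorticoids, TGF-beta or flow. METTL14 is the RNA-binding partner of METTL3 in the complex that writes N6-methyladenosine (m6A) on mRNA, preferentially at the adenosine of GGACT and related words. The comparison asks whether mRNA of any KLF differed between cells with the *Mettl14* hairpin and control cells.

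*Mettl14* itself was at 18.0 and 19.9 CPM (counts scaled to the TMM-normalized library total) in shCTR A and B and at 4.60 and 4.37 CPM in shMettl14 A and B. The targeted mRNA was thus at 23.6% of its shCTR mean (log2 fold change -2.08, SE 0.25). Its adjusted p was 1 in the edgeR fit of the hairpins alone, without a term for the letter, and 3.05e-07 in DESeq2. Libraries held between 114343653 and 124815868 counts, so that 3 counts, the limit a count of 0 allows, were at most 0.0278 CPM, a limit that covers counting error only. The cultures expressed the VSMC markers, whose 11 genes summed to between 7261 and 10155 CPM per library. Endothelial markers were also abundant. The 10 endothelial genes summed to 2181 CPM in shCTR A, 4354 CPM in shCTR B, 2118 CPM in shMettl14 A and 2850 CPM in shMettl14 B. *Cdh5*, which encodes VE-cadherin, was between 508 and 818 CPM and *Pecam1* between 477 and 820 CPM, whereas *Kdr*, the VEGF receptor 2 gene, was between 5.06 and 9.75 CPM. Fibroblast markers summed to between 322 and 412 CPM over 6 genes. Most of this sum was *Ly6a* (195 to 282 CPM) and *Dcn* (68.3 to 160 CPM). *Pdgfra* lay between 7.93 and 14.5 CPM, and *Lum*, *Dpt* and *Pi16* were each at 0.968 CPM or lower in every library. Leukocyte markers summed to between 12.4 and 17.5 CPM over 6 genes. No gene of the 4 lists was at 0 in every library. In bulk RNA, fewer cells of a type and less RNA per cell cannot be told apart.

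**Figure D1:**
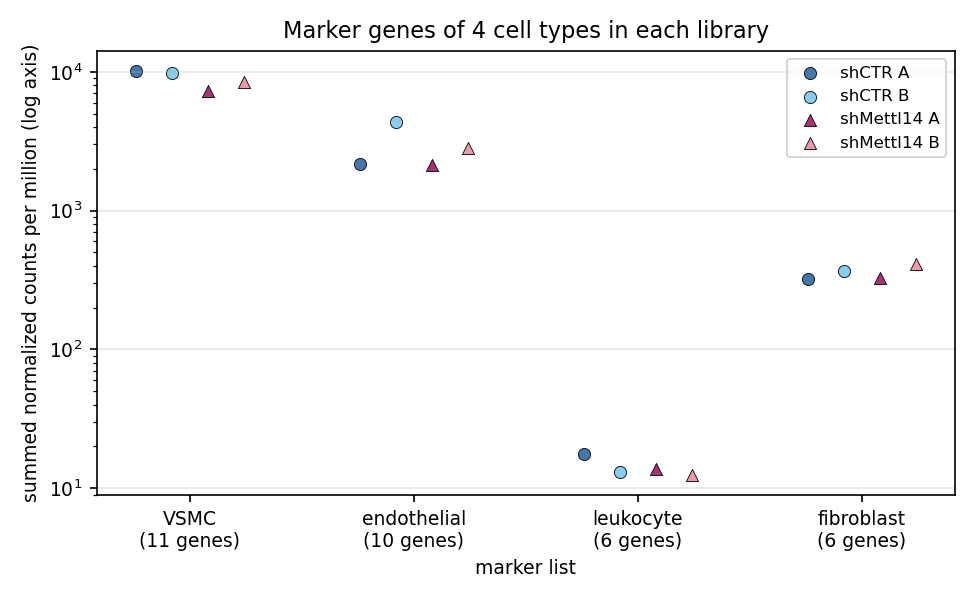
Summed TMM-normalized CPM (log axis) of the marker genes of 4 cell types, with 1 point per library, circles for shCTR and triangles for shMettl14. VSMC markers are highest in all 4 libraries, and endothelial markers, between 2118 and 4354 CPM, lie well above leukocyte markers, between 12.4 and 17.5 CPM.

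Because METTL14 acts at GGACT words, the coding sequences of the 10 genes were searched for them in the GENCODE M21 transcripts (GRCm38). At least 1 GGACT stood in 7 of 10 KLF coding sequences (70.0%), against 73.2% of 21152 protein-coding genes. *Klf7* held 3.32 per kb of coding sequence, *Klf6* 3.14, *Klf4* 1.38, *Klf9* 1.37, *Klf3* 0.969, *Klf2* 0.942 and *Klf5* 0.747, and *Klf10*, *Klf13* and *Klf15* had none. The median over the 10 genes was 0.955 per kb and that over all protein-coding genes 1.05. In the last 300 coding bases, next to the stop codon where m6A is known to concentrate, 2 of 10 KLFs (*Klf5* and *Klf7*, 20.0%) held the word, against 28.4% of all. The most 3′ coding copies that lie at least 15 bases inside the coding sequence are printed for the 4 genes that show these cases, *Klf4* and *Klf6* with copies far from the stop codon and *Klf5* and *Klf7* with copies near it. They are written in the sense of the mRNA with the word in capitals.
Klf4 (minus strand, chr4:55530095-55530129): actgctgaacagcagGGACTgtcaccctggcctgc
Klf6 (plus strand, chr13:5864914-5864948): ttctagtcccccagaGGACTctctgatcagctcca
Klf5 (plus strand, chr14:99303451-99313158, spliced across an intron): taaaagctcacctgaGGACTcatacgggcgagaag
Klf7 (minus strand, chr1:64042430-64078733, spliced across an intron): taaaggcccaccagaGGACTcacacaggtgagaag
The *Klf5* and *Klf7* words lie 183 and 180 coding bases before the end of the coding sequence. Their windows are identical at 29 of 35 bases and encode part of the zinc finger region that the family shares. The *Klf4* and *Klf6* words lie 449 and 584 coding bases before the end. The transcript after the coding sequence, 985 bases for *Klf4* and 3114 for *Klf6*, was not searched, so words near the stop codon on that side are not counted. A GGACT match does not show that the site is methylated, and no m6A measurement was used here.

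The 10 KLFs spanned a wide range of mRNA levels. Per kb of exon sequence, *Klf6* was the highest (mean over the 4 libraries 58.7 CPM per kb, range 53.0 to 64.8), followed by *Klf4* (37.4, range 24.5 to 49.6), and these ranges did not overlap. *Klf6*, an injury-responsive gene and tumor suppressor, took between 29.7% and 38.1% of the summed CPM of the 10 genes. Below them came *Klf3* at a mean of 13.2 CPM per kb (11.0 to 15.1), *Klf2* at 12.8 (7.08 to 20.1), *Klf9* at 12.5 (10.7 to 14.5), *Klf13* at 9.51 (6.40 to 13.2) and *Klf10* at 8.21 (7.81 to 9.11). Each of these 5 overlapped its neighbours in this order, so at this length adjacent ranks are not separated by the spread over libraries. The range of *Klf10* lay wholly below those of *Klf3* and *Klf9*. The length was that of all annotated exons merged. For *Klf3* it is 11243 bases, where the GENCODE transcript used for its coding sequence has 5221. Ranks depend on this choice, and ranks by transcript length were not computed. *Klf7* stood apart at a mean of 3.01 CPM per kb (2.13 to 3.72). *Klf15* (0.892, range 0.295 to 1.36) and *Klf5* (0.185, range 0.105 to 0.340) were lowest and overlapped each other. *Klf5*, known for growth after injury, had the lowest mean of the 10, although *Klf15* was lower than *Klf5* in shCTR B. The summed level of the 10 genes was 806 CPM in shCTR A, 695 in shCTR B, 784 in shMettl14 A and 667 in shMettl14 B, so the groups overlapped and the A libraries were higher with either hairpin.

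**Figure D2:**
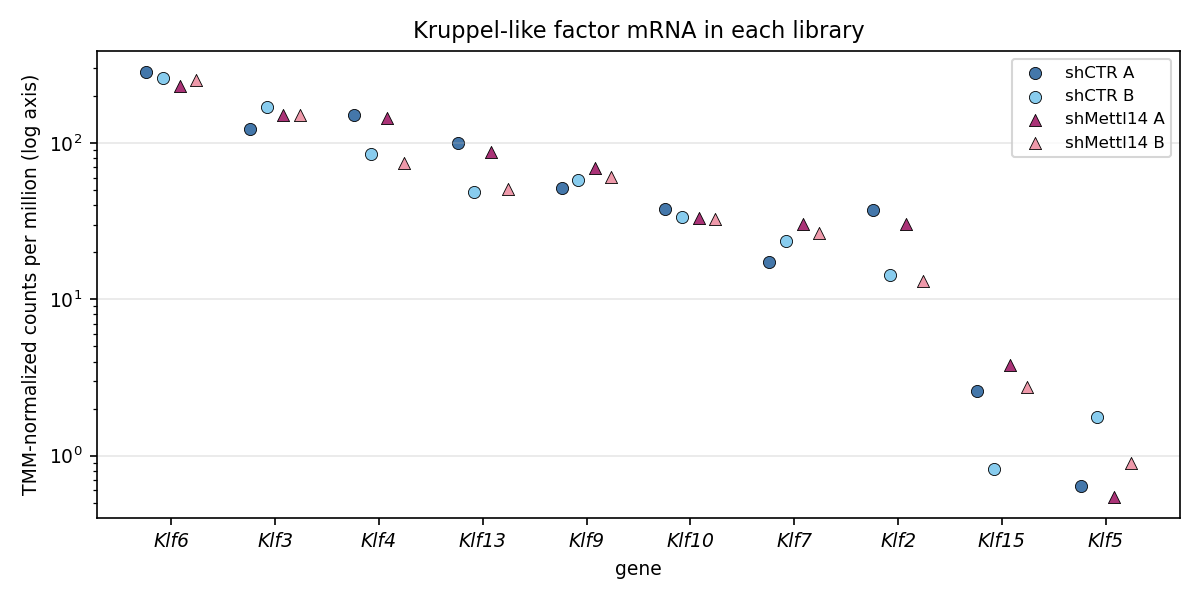
TMM-normalized CPM (log axis, not divided by gene length) of the 10 KLF genes, with 1 point per library, circles for shCTR and triangles for shMettl14, dark for letter A and light for letter B. *Klf6* lies at 233 CPM or higher in every library and *Klf5* at 1.77 CPM or lower. For *Klf2*, *Klf4* and *Klf13* the A points lie above the B points with both hairpins.

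Between hairpins, none of the 10 KLFs passed the test. In edgeR's quasi-likelihood fit of all 18916 genes with enough counts, 0 of 10 had a Benjamini-Hochberg adjusted p under 0.05, where 0.0% of all genes did, and each of the 10 had an adjusted p of 1. At an unadjusted p under 0.05 the count was also 0 of 10, against 1.67% of all genes (315 genes). DESeq2 called 5 genes of the whole table and no KLF. Over the 10 genes the median log2 fold change was -0.10, beside 0.01 over all genes tested, and the median of the within-letter log2 ratios was -0.11 for A and -0.04 for B. Both shMettl14 libraries were above both shCTR libraries for 3 KLFs (*Klf7*, *Klf9* and *Klf15*), where 14.7% of all genes were, and below both for 2 (*Klf6* and *Klf10*), where 13.3% of all genes were. Within both letters the shMettl14 library was higher for the same 3 genes (30.0% of all genes) and lower for 5, *Klf2*, *Klf4*, *Klf5*, *Klf6* and *Klf10* (27.7% of all genes). With 2 libraries against 2, an exact two-sided permutation test of a single gene cannot give a p below 0.333.

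**Figure D3:**
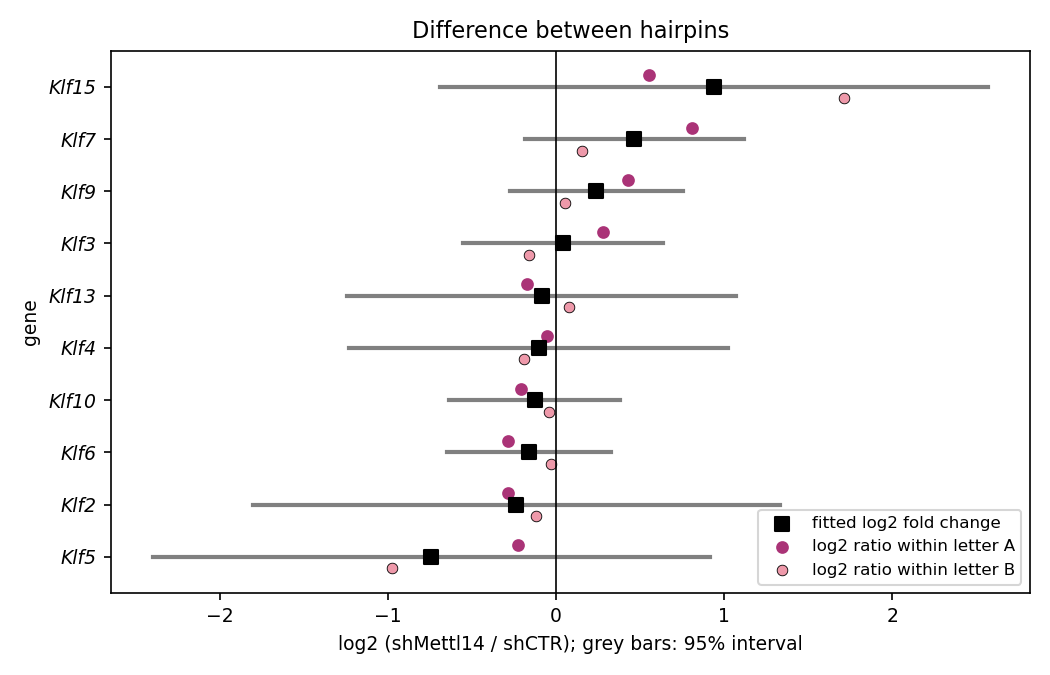
Log2 fold change between hairpins (shMettl14 over shCTR) of the 10 KLF genes. Black squares are the values fitted by edgeR without a term for the letter, and grey bars their 95% intervals. Dark points are the log2 ratio within letter A and light points that within letter B. All 10 intervals include 0, and the widest are those of *Klf5*, *Klf15* and *Klf2*.

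*Klf4* (ENSMUSG00000003032, minus strand, chr4:55527143-55532466, GRCm38), the factor tied to loss of the contractile state, was at 151 CPM in shCTR A, 85.3 in shCTR B, 145 in shMettl14 A and 74.7 in shMettl14 B. The groups overlapped, and the letters separated these libraries more than the hairpins did. Its log2 fold change was -0.10 (SE 0.44, 95% interval -1.23 to 1.02). Within letter A its log2 ratio was -0.06 and within letter B -0.19, so *Klf4* was slightly lower with shMettl14 at both letters. The interval is from the fit without a letter term, so the letter difference is part of its spread. It holds both a fall and a rise of more than 2-fold. With the letter as a block the log2 fold change was -0.12 (edgeR quasi-likelihood test, unadjusted p 0.44). Leaving out shCTR A gave a log2 fold change of 0.37 and leaving out shMettl14 B one of 0.30, but these fits leave the letters unbalanced between the hairpins, and a gene that differs by letter, as *Klf4* does, then shifts with the letter.

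*Klf5* (ENSMUSG00000005148, plus strand, chr14:99298691-99315036) had 73, 191, 65 and 116 counts in shCTR A, shCTR B, shMettl14 A and shMettl14 B, or 0.643, 1.77, 0.547 and 0.892 CPM. ShCTR B was the highest, both B libraries were above both A libraries, and the hairpin groups overlapped. Its log2 fold change of -0.74 (SE 0.64, 95% interval -2.40 to 0.92) was the lowest of the 10. The within-letter log2 ratios were -0.23 (A) and -0.97 (B). Without shCTR B the log2 fold change was 0.16, a fit in which the letters are unbalanced as for *Klf4*.

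*Klf2* (ENSMUSG00000055148, plus strand, chr8:72319033-72321656) is known as the flow-induced factor of quiescent endothelium. It was at 37.1 CPM in shCTR A, 14.2 in shCTR B, 30.5 in shMettl14 A and 13.1 in shMettl14 B. Both A libraries were more than 2-fold above both B libraries, and the hairpin groups overlapped. The log2 fold change was -0.24 (SE 0.61, 95% interval -1.81 to 1.33), and the within-letter log2 ratios were -0.28 (A) and -0.12 (B). It was 0.62 without shCTR A and 0.25 without shMettl14 B, fits in which the letters are unbalanced as for *Klf4*. The summed CPM of the endothelial markers was higher in B than in A with both hairpins, while *Klf2* was lower in B. Single markers were not all alike. The log2 ratio of B over A was -0.33 with shCTR and -0.23 with shMettl14 for *Tie1*, and -0.02 with both for *Thbd*. The other genes of the list were higher in B with both hairpins. The part of endothelial RNA in the *Klf2* values was not tested.

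*Klf6* (ENSMUSG00000000078, plus strand, chr13:5861482-5870394) was at 284 CPM in shCTR A, 260 in shCTR B, 233 in shMettl14 A and 254 in shMettl14 B. Both shMettl14 libraries were below both shCTR libraries, by a narrow margin at letter B. The log2 fold change was -0.16 (SE 0.19, 95% interval -0.65 to 0.33), and it was between -0.23 and -0.09 with each library left out in turn. Its interval is the narrowest of the 10, and a difference of 2-fold lies outside it in either direction.

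*Klf7* (ENSMUSG00000025959, minus strand, chr1:64029447-64122282), a relative of KLF6 known from neurons and adipose tissue, was at 17.3 CPM in shCTR A, 23.8 in shCTR B, 30.3 in shMettl14 A and 26.4 in shMettl14 B. Both shMettl14 libraries were above both shCTR libraries. Its log2 fold change of 0.47 (SE 0.25, 95% interval -0.18 to 1.12) had the smallest p of the 10 in the edgeR fit without a letter term. With DESeq2 and with the letter as a block, *Klf15* had the smallest. The within-letter log2 ratios of *Klf7* were 0.81 (A) and 0.15 (B), and its fold change was between 0.26 and 0.71 with each library left out. Of its exon bases, 39.4% overlap *Gm13748* and *Gm26649* on the other strand. *Gm13748* had between 6 and 16 counts per library and *Gm26649* 0, against 1964 to 3595 for *Klf7*. The kit marks strand, but whether the counting used it is not given in the sources used here.

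*Klf3* (ENSMUSG00000029178, plus strand, chr5:64803388-64832901), the repressor that binds CtBP, was at 124 CPM in shCTR A, 169 in shCTR B, 150 in shMettl14 A and 151 in shMettl14 B. The shMettl14 libraries lay between the shCTR libraries. The log2 fold change was 0.04 (SE 0.23, 95% interval -0.56 to 0.64), the within-letter log2 ratios had opposite signs (0.28 for A and -0.16 for B), and without shCTR A the fold change was -0.16. On the other strand *Gm20033*, with between 18 and 159 counts per library against 14045 to 19665 for *Klf3*, overlaps 3.59% of its exon bases.

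Of the 3 genes whose proteins recruit SIN3A, *Klf9* (ENSMUSG00000033863, plus strand, chr19:23141226-23168134) was at 51.8 CPM in shCTR A, 58.3 in shCTR B, 69.6 in shMettl14 A and 60.4 in shMettl14 B. The groups did not overlap, with a gap between shCTR B and shMettl14 B that was small beside the spread. The log2 fold change was 0.24 (SE 0.20, 95% interval -0.28 to 0.76), with 0.43 within letter A and 0.05 within letter B. *Klf10* (ENSMUSG00000037465, minus strand, chr15:38291463-38300706), first found as a TGF-beta-inducible early gene, was at 38.1, 33.5, 33.0 and 32.6 CPM in shCTR A, shCTR B, shMettl14 A and shMettl14 B. ShCTR A stood above the other 3 libraries, which were nearly level. Its log2 fold change was -0.13 (SE 0.20, 95% interval -0.64 to 0.38). *Klf13* (ENSMUSG00000052040, minus strand, chr7:63886351-63938915) was at 99.2 CPM in shCTR A, 48.2 in shCTR B, 88.1 in shMettl14 A and 50.8 in shMettl14 B. As with *Klf4*, the groups overlapped and the letters separated the libraries. Its log2 fold change was -0.09 (SE 0.45, 95% interval -1.24 to 1.07), with -0.17 within letter A and 0.07 within letter B, and it was 0.53 without shCTR A and 0.26 without shMettl14 B, with the letters unbalanced.

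*Klf15* (ENSMUSG00000030087, plus strand, chr6:90462576-90475238), a glucocorticoid-inducible factor of muscle and heart, had 294, 89, 452 and 357 counts in shCTR A, shCTR B, shMettl14 A and shMettl14 B. In the same order it was at 2.59, 0.824, 3.81 and 2.74 CPM. Both shMettl14 libraries were above both shCTR libraries, and shCTR B was the low one. The log2 fold change of 0.94 was the highest of the 10 (SE 0.63, 95% interval -0.69 to 2.57), with 0.55 within letter A and 1.72 within letter B. It was between 0.34 and 1.99 with each library left out.

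Differences between the letters were larger than those between hairpins for several KLFs. KLFs that were lower in B than in A with both hairpins numbered 5, *Klf2*, *Klf4*, *Klf10*, *Klf13* and *Klf15*, where 36.7% of all genes were lower, and 2, *Klf3* and *Klf5*, were higher in B with both, where 35.5% of all genes were. The log2 ratio of B over A was -1.38 with shCTR and -1.22 with shMettl14 for *Klf2*, -0.83 and -0.96 for *Klf4*, and -1.04 and -0.79 for *Klf13*. For *Klf15* it was -1.63 with shCTR and -0.47 with shMettl14. *Klf5* went the other way, at 1.44 with shCTR and 0.69 with shMettl14. The size of the letter difference was thus similar under both hairpins for *Klf2*, *Klf4* and *Klf13*, each ratio resting on 2 libraries.

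The letter difference moved with base composition. Across the 18276 tested genes with a transcript in GENCODE M21, Spearman's rho between GC content of the transcript and the log2 ratio of B over A was -0.37 with shCTR and -0.34 with shMettl14. The median ratio went from 0.57 in the lowest of 50 GC bins to -1.05 in the highest with shCTR, and from 0.27 to -0.70 with shMettl14. Over the 10 KLFs rho was -0.68 and -0.75, a description of 10 genes that were read in the same 4 libraries. *Klf2* has the most GC-rich transcript of the 10 (61.6%), followed by *Klf13* (55.5%), *Klf15* (54.9%) and *Klf4* (54.6%), and the other 6 lie between 42.4% and 47.9%, under the median of 49.9%. After subtracting the trend, interpolated between the bin medians at each gene's GC content, the letter difference was -0.57 with shCTR and -0.69 with shMettl14 for *Klf2*, -0.63 and -0.81 for *Klf4* and -0.74 and -0.64 for *Klf13*. It was thus smaller, in the same direction, for these 3 genes. For *Klf15* it was -1.37 and -0.33, and for *Klf5* 1.30 and 0.56. Between hairpins, rho across all genes was -0.25 for letter A and -0.01 for letter B, and every KLF kept the sign of its fitted hairpin difference after the same subtraction, while the letter A ratio of *Klf4* went from -0.06 to 0.03.

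**Figure D4:**
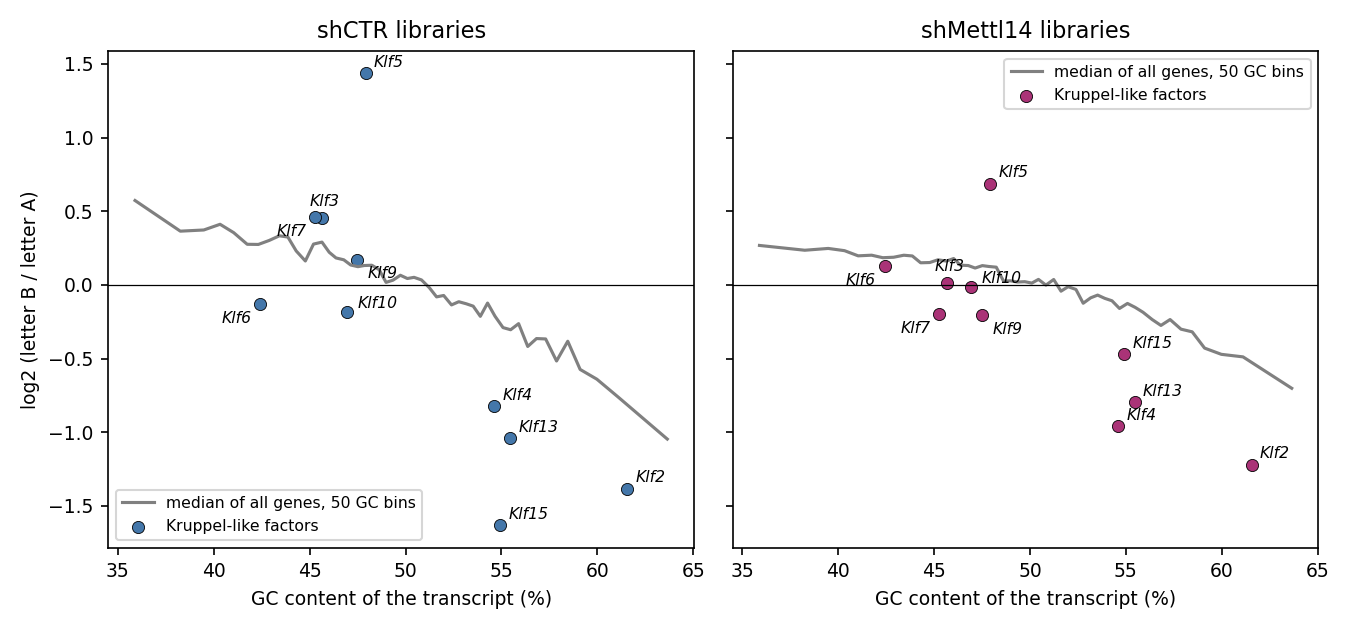
Log2 ratio of the letter B to the letter A library against the GC content of the transcript (%), for shCTR (left) and shMettl14 (right). Points are the 10 KLFs and the grey line joins the medians of all tested genes in 50 GC bins. In both panels *Klf2*, *Klf4*, *Klf13* and *Klf15* lie at the GC-rich end and below the line, and *Klf5* lies above it.

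Promoters of the KLFs that differed together between letters were read in the RefSeq promoter windows (GRCm38.p6, 250 bases before to 50 after the start), which matched 8 of the 10 genes, without *Klf5* and *Klf10*. The windows of *Klf2* and *Klf4*, the pair that flow induces together in endothelium through the kinase ERK5 and MEF2 factors, are printed with every CACCC (either strand, so GGGTG on the printed strand) and every CTA followed after 4 bases by TAG, the palindromic frame of MEF2 sites, in capitals.
Klf2 promoter (plus strand, chr8:72318812-72319111): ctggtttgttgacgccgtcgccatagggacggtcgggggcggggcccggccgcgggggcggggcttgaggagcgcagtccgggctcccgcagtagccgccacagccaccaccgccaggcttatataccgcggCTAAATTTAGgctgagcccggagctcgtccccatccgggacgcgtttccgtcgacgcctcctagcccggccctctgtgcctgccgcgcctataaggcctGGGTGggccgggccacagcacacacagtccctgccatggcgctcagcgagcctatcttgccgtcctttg
Klf4 promoter (minus strand, chr4:55532426-55532725): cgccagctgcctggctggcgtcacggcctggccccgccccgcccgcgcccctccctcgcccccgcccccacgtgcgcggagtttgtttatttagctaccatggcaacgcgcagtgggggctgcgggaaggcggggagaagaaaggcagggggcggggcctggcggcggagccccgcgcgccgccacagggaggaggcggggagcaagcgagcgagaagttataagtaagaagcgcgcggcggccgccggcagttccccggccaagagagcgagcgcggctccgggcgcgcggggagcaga
The MEF2 frame stood in the *Klf2* window and in none of the other 7, and in 3.69% of all 32851 promoters. CACCC stood once in *Klf2*, *Klf9*, *Klf13* and *Klf15*, 3 times in *Klf7* and 5 times in *Klf3*, and not in *Klf4* or *Klf6*, beside 57.5% of all promoters with at least 1 copy. TGACGTCA, the cyclic AMP response element (1.79% of promoters), ACANNNTGT, the core of glucocorticoid receptor sites (6.85%), and TATAAA (either strand, 13.6%) stood in none of the 8 windows. These matches overlap no other motif searched and say nothing of binding. The windows are GC-rich, between 58.3% (*Klf7*) and 76.7% (*Klf3*), against a median of 52.7% over all promoters.

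The 7 KLF genes outside this group gave 5 that could be tested. None passed at an adjusted or unadjusted p under 0.05, beside 0.0% and 1.67% of all genes. *Klf14* and *Klf17* had 0 counts in every library, which allows up to 0.0278 CPM. *Klf12*, a CtBP-binding repressor like KLF3, was at 1.45 CPM in shCTR A, 6.10 in shCTR B, 1.63 in shMettl14 A and 2.47 in shMettl14 B, so that shCTR B stood apart (log2 fold change -0.88, SE 0.74). *Klf11*, close to KLF10, lay between 9.05 and 10.9 CPM (log2 fold change 0.02). *Klf16* repeated the letter pattern of *Klf13*, at 24.4 and 8.91 CPM in shCTR A and B and 22.6 and 13.2 in shMettl14 A and B (log2 fold change 0.10). *Klf8* was between 1.09 and 2.94 CPM (0.10), and *Klf1*, the erythroid founder of the family, was between 0 and 0.150 CPM.

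SP factors share the zinc finger type of the KLFs, and 7 of their 9 genes could be tested. None had an unadjusted p under 0.05, beside 1.67% of all genes. *Sp1*, the general activator of GC boxes, was at 55.2, 75.9, 72.6 and 80.0 CPM in shCTR A, shCTR B, shMettl14 A and shMettl14 B (log2 fold change 0.22, SE 0.24), and *Sp3* lay between 74.4 and 93.5 CPM (0.13). *Sp4* had the smallest p of the list (0.49, SE 0.40), *Sp2* was at -0.28, *Sp7* at -0.50 and *Sp9* at 0.02. *Sp5*, a Wnt target, separated by letter more than any KLF member, at 55.8 and 13.3 CPM in shCTR A and B and 57.3 and 13.9 CPM in shMettl14 A and B (log2 fold change 0.04). *Sp6* and *Sp8* were not tested, with at most 0.017 CPM in any library.

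Among the cofactors that KLFs recruit, 1 of 9 had an unadjusted p under 0.05, beside 1.67% of all genes. *Ctbp2*, which encodes the corepressor used by KLF3 and KLF12, was at 46.6 CPM in shCTR A, 62.9 in shCTR B, 32.3 in shMettl14 A and 35.3 in shMettl14 B. Both shMettl14 libraries were below both shCTR libraries (log2 fold change -0.70, SE 0.23, 95% interval -1.30 to -0.09, adjusted p = 1). Its paralog *Ctbp1* lay between 133 and 187 CPM (log2 fold change -0.02). *Sin3b* was at -0.36 (SE 0.21), *Hdac1* at -0.14 and *Kat2b* at 0.15, and 3 of the 9 were lower within both letters and 0 higher, where 27.7% and 30.0% of all genes were. The list of upstream regulators and ubiquitin ligases had 0 of 8 at an unadjusted p under 0.05, with 4 lower and 1 higher within both letters (27.7% and 30.0% of all genes). *Mef2a*, a MEF2 factor upstream of *Klf2*, was at 198, 468, 181 and 310 CPM in shCTR A, shCTR B, shMettl14 A and shMettl14 B. *Mef2a* was higher in B than in A with both hairpins, and members of this list went both ways between letters. The log2 ratio of B over A was 1.41 with shCTR and 1.69 with shMettl14 for *Mef2c*. It was -0.31 and -0.38 for *Mef2d*, and -0.30 and -0.46 for *Mapk7*, the gene of ERK5. A link of these genes to *Klf2* was not tested. *Wwp1*, a ligase that targets KLF2 and KLF5 protein, was at 0.15, *Map2k5*, the kinase above ERK5, at -0.11 and *Btrc* at -0.11 (log2 fold changes).

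Of the contractile genes that KLF4 represses and their SRF regulators, 9 of 15 were lower and 1 higher within both letters with shMettl14, beside 27.7% and 30.0% of all genes, and 1 of 15 had an unadjusted p under 0.05, beside 1.67% of all genes. The list's median log2 fold change was -0.20, beside 0.01 over all genes tested. *Acta2*, encoding smooth muscle actin, was at 3547 CPM in shCTR A, 2799 in shCTR B, 2171 in shMettl14 A and 2073 in shMettl14 B, without overlap (log2 fold change -0.58, SE 0.21, adjusted p = 1). *Myl9* (-0.52, SE 0.22), *Tpm2* (-0.77, SE 0.42) and *Cnn1* (-0.51, SE 0.33), genes of the contractile apparatus, were also lower within both letters. The synthetic state and KLF5 growth genes had 5 of 6 lower within both letters and 1 higher (the same shares of all genes apply), with a median of -0.37. *Vim*, encoding vimentin, was at 4766, 4224, 3185 and 3297 CPM in shCTR A, shCTR B, shMettl14 A and shMettl14 B (log2 fold change -0.47, SE 0.18, adjusted p = 1). *Spp1*, encoding osteopontin, was at -0.86 (SE 0.37), *Lgals3* at -0.48 and *Pdgfa* at -0.26. Genes of the contractile and synthetic states were thus mostly lower alike in these libraries, at values that did not pass the adjusted test. *Klf4* differed by less than the spread between libraries, which for this gene includes the letter difference. Its within-letter log2 ratios were -0.06 (A) and -0.19 (B).

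Lists of signals that induce KLF genes gave no gene at an unadjusted p under 0.05, beside 1.67% of all genes. Of 16 serum immediate early genes, 10 were lower and 1 higher within both letters, beside 27.7% and 30.0% of all genes, and the median log2 fold change was -0.26. The smallest p values belonged to *Egr2* (-0.92, SE 0.37), *Nr4a1* (-0.58, SE 0.27), *Fosl1* (-0.55, SE 0.26) and *Ier2* (-0.34, SE 0.25), all early transcription factors or regulators of them. Of 7 tested glucocorticoid response genes, 5 were lower and 1 higher within both letters (27.7% and 30.0% of all genes). The median was -0.28, and 0.048 without shCTR A. The smallest p values were those of *Errfi1* (-0.29, SE 0.18), *Sgk1* (-0.35, SE 0.31), *Tsc22d3* (-0.24, SE 0.29) and *Dusp1* (-0.29, SE 0.38). *Klf9* and *Klf15*, which glucocorticoids induce, were higher in both shMettl14 libraries, at values that did not pass the test. A link to glucocorticoid signalling was not tested. Of 6 TGF-beta early response genes, 2 were lower within both letters and 0 higher. The median was 0.04, but -0.39 without shCTR B and -0.30 without shMettl14 A. *Pmepa1* (-0.60, SE 0.24) and *Tgif1* (-0.36, SE 0.19) were lower in both shMettl14 libraries, and *Skil* (0.07, SE 0.20) and *Smad7* (0.11, SE 0.42) overlapped.

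Markers of other cell types were read for the same comparison. Of the 10 endothelial genes 4 were lower and 1 higher within both letters, beside 27.7% and 30.0% of all genes. None was at an unadjusted p under 0.05, beside 1.67% of all genes. The median log2 fold change was -0.18, and 0.23 without shCTR B. *Thbd*, a known KLF2 and KLF4 target that encodes thrombomodulin, was at 254 and 250 CPM in shCTR A and B and at 301 and 296 CPM in shMettl14 A and B (log2 fold change 0.25, SE 0.18). *Nos3*, another KLF2 target, was at 7.76, 36.0, 6.05 and 32.0 CPM in shCTR A, shCTR B, shMettl14 A and shMettl14 B, so that it followed the letter in the direction opposite to *Klf2*. *Emcn*, *Pecam1* and *Erg* were at -0.82 (SE 0.66), -0.33 (SE 0.31) and -0.25 (SE 0.33), with shCTR B the highest library for each. Leukocyte markers gave 5 tested genes, 2 lower within both letters and 0 higher (median -0.18, and 0.17 without shCTR A), and fibroblast markers 6, 1 lower and 1 higher (median 0.05). The part of these cell types in the KLF values was not tested.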

How the data were processed

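The deposited values are whole-number counts per gene symbol, which the authors obtained by mapping read pairs of stranded poly-A libraries to mouse mm10 with STAR and counting with featureCounts, without normalization. Versions, the strand setting and the treatment of reads with several places are not given in the sources used here. All 4 columns were used. edgeR 4.0.16 (R 4.3.3) with TMM factors, filterByExpr (18916 genes) and a robust quasi-likelihood fit of shMettl14 against shCTR without a block was the main test, two-sided, with Benjamini-Hochberg adjustment over all genes tested and a threshold of 0.05. Standard errors were taken from the log2 fold change and its F statistic. Log2 ratios within letters used log2 CPM with a prior count of 2. Alternatives were DESeq2 1.42.0, RLE and upper-quartile factors, no filter, a minimum of 10 counts in each library, the letter as a block and each library left out. Removal of the GC trend (medians of 50 bins) was chosen after seeing the data. Gene places, exon and coding sequences came from GENCODE M21 (GRCm38), and promoters from RefSeq (GRCm38.p6). The main test was tested on simulated counts of libraries whose letters did not differ, unlike those here. All KLF members were named, *Mettl14*, every other KLF and SP gene, and of each other list up to 4 genes with the smallest unadjusted p. *Ctbp1*, *Nos3*, *Cdh5*, *Kdr*, *Tie1*, *Pdgfra*, *Dpt*, *Mef2c*, *Mef2d* and *Mapk7* were named after their values were seen. The members and lists were chosen with earlier results of these data known. For genes with few counts, such as *Klf1* and *Sp7*, counting error is a large part of the spread between libraries.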

Additional observations from a re-analysis of the deposited data

How the results depend on the processing

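No KLF had an adjusted p under 0.05 under any alternative, the lowest being 0.325. No source ties the letters to cultures. Same-letter libraries deviated together (correlation across genes 0.578), and with the letter as a replicate block 2 KLFs had an unadjusted p under 0.05 (*Klf7* and *Klf15*), where 10.3% of all genes did, and 9 genes, none a KLF, had an adjusted p under 0.05. Under the block the *Mettl14* log2 fold change was -2.08 and passed the adjusted test, as it did with DESeq2 (-2.09). With each library left out the count at an unadjusted p under 0.05 was between 0 and 1 (*Klf15* without shCTR A, where 6.90% of all genes passed, and *Klf7* without shCTR B, where 4.08% did). The median log2 fold change of the 10 KLFs was between -0.11 and 0.25 with each library left out, and it was -0.032 after removal of the GC trend, an alternative chosen after seeing the data. With a library left out, log2 fold changes ranged from -0.97 to 0.62 for *Klf2*, -0.16 to 0.28 for *Klf3*, -0.66 to 0.37 for *Klf4*, -1.29 to 0.16 for *Klf5* and -0.54 to 0.53 for *Klf13*. The other 5 KLFs kept their direction in all alternatives. The medians of the contractile, synthetic and immediate early lists stayed below 0 under the other tools, normalizations, filters, the block and each library left out (removal of the GC trend was run for the KLFs only). Those of the glucocorticoid, TGF-beta, endothelial, leukocyte and fibroblast lists changed sign with at least 1 library left out, and that of the fibroblast list was also -0.17 with at least 10 counts per library. The fits that left out a library assume that the lone library of a group varies like the other group, and they leave the letters unbalanced between the hairpins, so that a gene that differs by letter shifts by construction.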
